A study of Sus scrofa with 30 samples.

Results

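The genes described here are 74 members of the machinery that moves membrane vesicles inside cells, measured in the cerebral cortex of pigs after cardiac arrest and resuscitation. They were taken from an Affymetrix porcine array by their symbols: RAB followed by a digit (31 genes), VPS (21), STX (8), COPS (7), VAMP (4) and SNAP2 (3). Where a gene had several probe sets, which are groups of short probes for 1 transcript, the probe set with the highest mean over the 30 arrays stood for it. The 74 genes are among 6790 genes with a single symbol on the array, and 73 of them passed the filter on low signal. VPS53, a subunit of a tethering complex at the Golgi, read 3.50 to 54.4 over the 30 arrays and was not tested. The symbols hold a few genes of other function. The 7 COPS genes encode subunits of the COP9 signalosome, which takes the modifier NEDD8 off ubiquitin ligases, VPS72 encodes a subunit of chromatin remodelling complexes, and RAB3GAP1, RAB3GAP2, RAB3IP and RAB3IL1 encode regulators of RAB proteins and not RAB GTPases. RAB5A, VPS35, VPS4B, STX1A and VAMP1 were not analysed here.

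The animals were farm pigs of a Swedish triple breed, of both sexes, prepubertal and 12 to 14 weeks old, anaesthetised with pentobarbital and put into ventricular fibrillation. In 4 groups there was no resuscitation, and the brain was taken at 0, 5, 20 or 30 min of arrest (CA0, CA5, CA20 and CA30). In 6 groups, 12 min of arrest and 8 min of mechanical chest compressions came first, and the brain was taken 30, 60 or 180 min after the return of spontaneous circulation (ROSC). From 1 min into the compressions until 50 min of ROSC, animals assigned at random received saline at 55 mL/kg/h (SAL30, SAL60 and SAL180) or the same infusion with methylene blue at 7.5 mg/kg/h (MB30, MB60 and MB180). Methylene blue is a dye that blocks enzymes of nitric oxide signalling. The saline controls therefore carry the arrest, the resuscitation and the fluid load too, and CA0 animals had also had fibrillation induced. SAL30 and MB30 brains were taken while the infusion ran. Each group has 3 arrays that the labels call biological replicates, and the p-values measure the spread between these samples.

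RAB proteins are small GTPases that sit on a given membrane in their GTP-bound form and recruit tethers, motors and fusion factors to it. SNARE proteins (syntaxins or STX, VAMP and SNAP proteins) of the vesicle and of the target zip together and fuse the membranes, and Sec1/Munc18 proteins such as VPS45 and VPS33A guide them. VPS genes, named after yeast mutants in vacuolar sorting, encode the HOPS and CORVET tethers of endosomes and lysosomes, retromer, which retrieves cargo from endosomes, and the ESCRT complexes, which bud vesicles into endosomes and act in membrane repair. In cortical neurons, RAB3A, SNAP25 and VAMP2 serve the release of transmitter, and the endosomal members sort receptors and growth factor signals.

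Values are array intensities on a linear scale, in arbitrary units, and levels of different probe sets cannot be set against each other. Differences are on the log2(intensity + 16) scale, which understates changes of dim genes. A gene is called where limma gave a Benjamini-Hochberg adjusted p below 0.05 over all 16799 probe sets tested. The trimmed mean was 300.05 to 300.06 on every array (2% left out at each end), so the values had been scaled to a common level. Similar brightness was thus set in advance. The median intensity was 87.1 to 105 on the 21 CA and SAL arrays and 97.6 to 108 on the 9 MB arrays. The arrays differed at the dim end, where the 25th percentile was 18.3 to 24.8 and 24.7 to 31.8. The log2 ratio of 3' to 5' signal of control transcripts, which rises as RNA breaks down, was 1.06 to 2.70 (median 1.56) on the CA arrays, 0.982 to 2.59 (1.35) on the SAL arrays and 0.711 to 1.34 (0.897) on the MB arrays. SAL30 replicate 1 and SAL180 replicate 3 stood apart, with residuals (root mean square over probe sets) of 0.370 and 0.317 against 0.214 to 0.310 on the other arrays. To describe the tissue, marker levels were summed for each cell type. The brightest probe sets weigh most in such a sum, as MBP does for oligodendrocytes (10881 to 17528 on the CA arrays). The sum on any array was at least 24970 for neuron markers (7 of 10 listed were on the array), 19230 for astrocyte markers (6 of 7) and 17550 for oligodendrocyte markers (4 of 6). Which part of the brain was sampled cannot be read from these sums. Summed choroid plexus markers reached 12200 on 1 CA array against at most 365 on any SAL and 268 on any MB array. Tissue was measured in bulk, so fewer cells of a type and less RNA per cell cannot be told apart.

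The trafficking genes did not pass the test during arrest or after resuscitation with saline, and those that passed did so in comparisons with the methylene blue groups. In limma, 0 of 73 genes were called in CA5, CA20 or CA30 against CA0, where 0%, 0.0119% and 0.0119% of all probe sets were called. Again 0 of 73 were called in SAL30, SAL60 or SAL180 against CA0, where 0.196%, 0.315% and 0.875% of all probe sets were. Between the arms, over the mean of the 3 times, 22 of 73 (30.1%) were called, 14 higher and 8 lower with methylene blue, beside 25.2% of all probe sets (13.8% higher and 11.4% lower). The share among the trafficking genes was thus near that of the array as a whole, as it was in most comparisons.

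**Figure D1:**
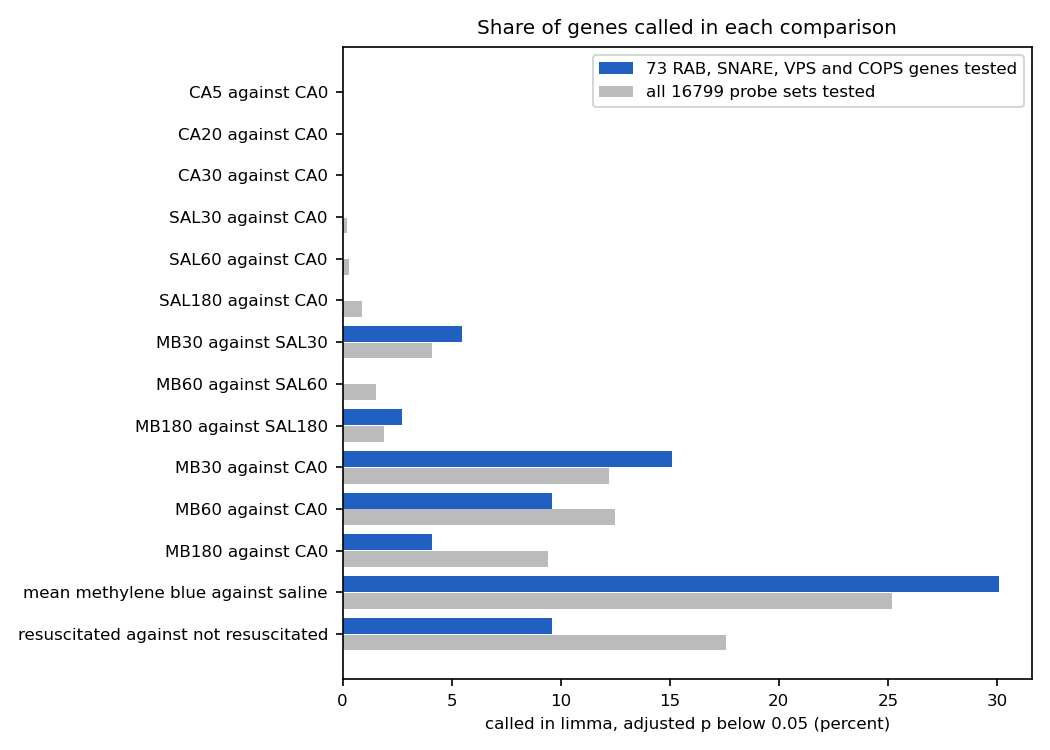
Bars give the percent of the 73 trafficking genes (blue) and of all 16799 probe sets (grey) that limma called in 14 comparisons, on an axis that starts at 0. Blue bars are at 0 in the 6 comparisons of CA5 to SAL180 with CA0, and the longest pair among those plotted, 30.1% and 25.2%, is that of the methylene blue with the saline arm.

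During arrest without resuscitation the genes with the smallest p belonged to several roles, and none passed. At 5 min 0 genes had an unadjusted p below 0.05, beside 1.89% of all probe sets. The smallest p belonged to RAB13, of the recycling pathway to tight junctions (log2 difference -0.34 ± 0.19 SE, adjusted p = 1 in limma), STX5, the syntaxin of ER to Golgi transport (-0.22 ± 0.13), STX16 (0.39 ± 0.24) and RAB34 (0.37 ± 0.24). At 20 min 2 genes had an unadjusted p below 0.05, beside 4.24% of all probe sets. These were COPS2, a scaffold subunit of the COP9 signalosome, at -0.28 ± 0.12, and VPS26B, a subunit of retromer, at -0.46 ± 0.21 (limma adjusted p = 0.997 for both). COPS2 read 1235, 1151 and 1149 at 20 min and 1223, 1709 and 1413 at 0 min, so that 1 CA20 array lay above the lowest CA0 array. VPS26B read 445, 529 and 665 and 851, 735 and 667, and the highest CA20 array lay just under the lowest CA0 array. RAB32, a RAB of lysosome-related organelles and mitochondria, differed by 0.39 ± 0.19, and RAB26, of secretory vesicles, by 0.47 ± 0.25. At 30 min RAB1A, of ER to Golgi transport, differed by 0.35 ± 0.13 and COPS3, another COP9 subunit, by -0.29 ± 0.13 (limma adjusted p = 0.985 for both), and these were the 2 genes with an unadjusted p below 0.05, beside 4.06% of all probe sets. RAB1A read 2093, 2159 and 2541 against 1737, 1654 and 1929.8, with no overlap. VAMP7, a SNARE of late endosomes and lysosomes, differed by 0.46 ± 0.24, and STX11, a syntaxin best known from immune cells, by -0.56 ± 0.28.

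After resuscitation with saline the differences from CA0 were also small, with a median size on the log2 scale of 0.118, 0.115 and 0.111 over the 73 genes at 30, 60 and 180 min, beside 0.158, 0.147 and 0.153 over all probe sets. Genes with an unadjusted p below 0.05 numbered 3, 2 and 4, beside 7.38%, 6.3% and 8.73% of all probe sets. RAB3GAP2, a regulator of RAB3 and RAB18, read 302, 432 and 542 in SAL30 against 793, 552 and 641 in CA0. Its difference of -0.64 ± 0.24 missed the threshold (limma adjusted p = 0.605). All 3 SAL30 arrays lay below the 3 CA0 arrays for this gene, the lowest being SAL30 replicate 1. RAB14, of traffic between the Golgi and early endosomes, differed by 0.76 ± 0.36 (adjusted p = 0.67), VPS11, of the HOPS and CORVET tethers, by -0.27 ± 0.12, and COPS5, the catalytic subunit of the COP9 signalosome, by 0.23 ± 0.14. At 60 min VPS26B differed by -0.59 ± 0.21 and RAB1A by 0.29 ± 0.13, with VPS36, of ESCRT-II, at 0.36 ± 0.22 and VPS11 at -0.20 ± 0.12. At 180 min RAB19, a little studied RAB of the Golgi, differed by 0.57 ± 0.22 (adjusted p = 0.355), RAB3D, of secretory granules, by 0.39 ± 0.18, VPS33A, the Sec1/Munc18 subunit of HOPS, by -0.25 ± 0.12 and COPS2 by -0.24 ± 0.12.

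The comparison of the arms asked what methylene blue adds to resuscitation with saline. The counts called in each role, given below, stand beside 25.2% of all probe sets, 13.8% higher and 11.4% lower. The genes that differed came from nearly every step of the pathway, and called members of the HOPS tether and of the COP9 signalosome stood on opposite sides. For VPS16 and VPS18 of the HOPS tether, a further probe set was not called. VPS29, VPS45, VPS16, VPS37B, VPS37D, COPS5 and RAB3GAP2 were higher with methylene blue, VAMP3 and COPS3 were lower, and these 9 remained called when the 3'/5' ratio was added to the fit. Over all 73 genes the median log2 difference was 0.04, beside 0.02 over all probe sets, with 41 genes above 0 and 32 below. With the log2 values of each array centred on their median, 10 genes were called higher and 17 lower, in place of 14 and 8, while each of the 22 kept its sign. The median over all probe sets was then -0.07, in place of 0.02. Centring moves every probe set of an array by the same amount. The median difference thus moved for the array as a whole and not for these genes alone. The part of that shift in the change of their calls was not tested.

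Markers of other cell types were also called between the arms, in a comparison where 25.2% of all probe sets were called. OLIG2, of oligodendrocyte precursors and the 1 of 3 listed markers on the array, was lower with methylene blue (-0.77 ± 0.17 SE, limma adjusted p = 0.00207), at 128 to 297 on the MB, 262 to 592 on the SAL and 211 to 426 on the CA arrays. Of 5 microglia markers on the array (7 listed, 4 above the filter) TYROBP was lower (-0.52 ± 0.15, 0.0112), and their sum was 1167 to 1841 on the MB, 1095 to 3650 on the SAL and 1358 to 2887 on the CA arrays. Higher were 1 of 6 astrocyte markers, SLC1A3 (0.43 ± 0.13, 0.0162), 1 of 6 endothelial markers, CDH5 (0.31 ± 0.11, 0.0309), and 1 of 3 meningeal markers, DCN (0.55 ± 0.21, 0.0495). Astrocyte, endothelial and microglial markers without a call went both ways, while the meningeal ones, COL1A2 and LUM, were on the side of DCN (0.19 and 0.21). Astrocyte GFAP, S100B and ALDH1L1 differed by -0.23, -0.11 and -0.06, and GJA1 and SLC1A2 by 0.10 and 0.13. Endothelial CLDN5 differed by -0.21, and FLT1, PECAM1 and ABCB1 by 0.44, 0.07 and 0.05. Microglial AIF1, C1QA and P2RY12 differed by -0.31, -0.07 and 0.05. The astrocyte sum was 19960 to 27420 on the MB, 19970 to 28520 on the SAL and 19230 to 25450 on the CA arrays. The endothelial sum was 1007 to 1751 on the MB, 1002 to 1965 on the SAL and 1016 to 1424 on the CA arrays, and the meningeal sum 548 to 834 on the MB, 391 to 733 on the SAL and 402 to 688 on the CA arrays. Of 4 oligodendrocyte markers on the array 0 were called, with CNP, MAG and MOBP at -0.74, -0.44 and -0.22 and MBP at 0.09. The part of these cell types in the 22 calls was not tested.

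**Figure D2:**
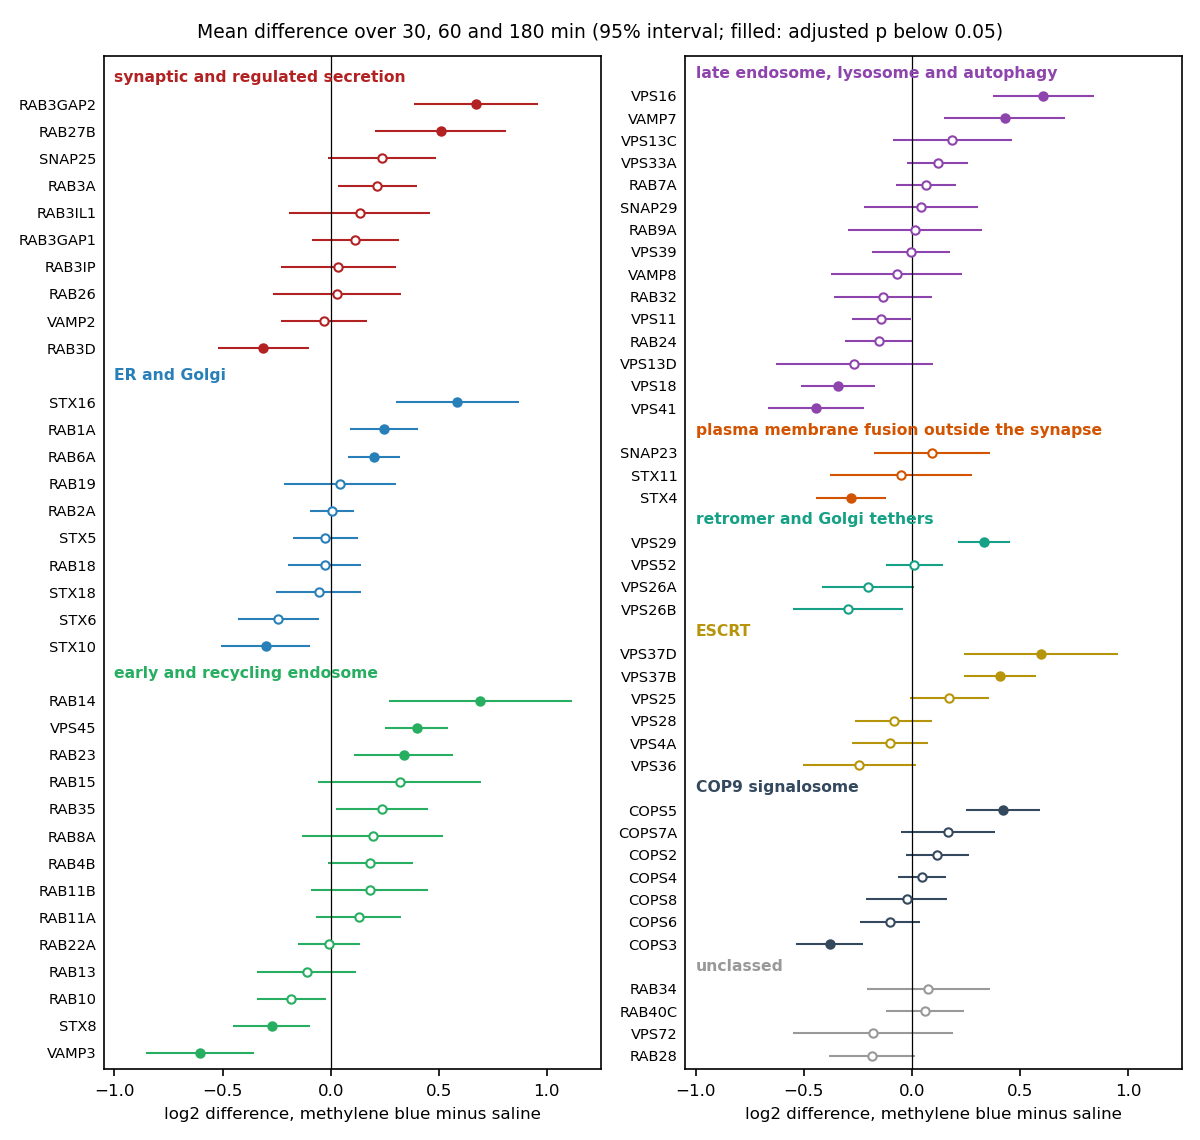
Points give the log2 difference between the methylene blue and saline arms, averaged over 30, 60 and 180 min of ROSC, for each of the 73 genes, grouped by role; lines are 95% intervals from limma and filled points are called. Called genes lie on both sides of 0 in the synaptic, ER and Golgi, early endosome, late endosome and COP9 groups.

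Among the 10 genes of synaptic release and regulated secretion, 2 were higher, 1 was lower and 7 did not pass, and the core proteins of transmitter release were among the 7. RAB3GAP2 read 1153, 773 and 759.6 at 30 min, with 814, 927 and 729 at 60 min and 942, 806 and 493 at 180 min with methylene blue. With saline it read 302, 432 and 542 at 30 min, with 739, 430.4 and 559 at 60 min and 470.4, 481 and 656 at 180 min, and the CA arrays ran from 458 to 810.2 (median 664). Of the 9 MB arrays 7 lay above every saline array, and MB60 replicate 3 and MB180 replicate 3 lay inside the saline range. The difference was 0.67 ± 0.14 on the log2 scale (SE, 9 arrays per arm, limma adjusted p = 0.00117), 1.59-fold higher. RAB27B, which docks secretory vesicles, was dim, at 24.2 to 68.2 (median 51.2) over the MB arrays and 16.3 to 40.2 (median 31.6) over the SAL arrays, with 8 of 9 MB arrays above all saline arrays. It was higher by 0.51 ± 0.15 (adjusted p = 0.0137), and under quantile normalization it was not called (0.124). RAB3D, at 74.1 to 167 (median 118) against 105 to 191 (median 141), was lower, with a difference of -0.31 ± 0.10 (adjusted p = 0.0278). Its call was lost without any one of SAL30 replicate 2 (0.052), SAL60 replicate 1 (0.0576), SAL180 replicate 1 (0.0558), MB30 replicate 1 (0.0702) or MB180 replicate 2 (0.0606).

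SNAP25, the target SNARE of synaptic vesicles, ran from 9045 to 19969 (median 12248) with methylene blue, 7124 to 13170.0 (median 10869) with saline and 8848 to 13011 (median 10694) without resuscitation. The ranges overlap widely, and the arm difference of 0.24 ± 0.12 did not pass (limma adjusted p = 0.153, 95% interval -0.01 to 0.49). VAMP2, its partner on the vesicle, differed by -0.03 ± 0.10 (interval -0.23 to 0.17), and RAB3A, the RAB of synaptic vesicles, by 0.22 ± 0.09 (adjusted p = 0.076). RAB3A read 5113, 5270.3 and 4775 at 30 min, with 4835, 4901 and 5850.5 at 60 min and 3984, 5540.2 and 5110.4 at 180 min in the MB groups. It read 3196, 4931 and 4279.8 at 30 min, with 4005, 4987 and 3830.5 at 60 min and 4622, 4301 and 5068 at 180 min in the SAL groups, and 5 of 9 MB arrays lay above all saline arrays. RAB3GAP1, the catalytic partner of RAB3GAP2, differed by 0.11 ± 0.10, and RAB26, RAB3IP and RAB3IL1 by 0.03 ± 0.14, 0.04 ± 0.13 and 0.13 ± 0.16. The summed level of 7 neuronal markers was 24970 to 36460 on the MB arrays, 25620 to 32400 on the SAL arrays and 27020 to 33260 on the CA arrays, and 1 of the 7, the vesicle calcium sensor SYT1, was called, as higher with methylene blue. Their part in these values was not tested.

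Of 10 genes of the ER and Golgi, 3 were higher and 1 lower. STX16, a syntaxin of the trans-Golgi network that receives vesicles from endosomes, read 65.3, 78.7 and 74.6 at 30 min, with 81.8, 94.7 and 119 at 60 min and 53.8, 100.2 and 78.8 at 180 min with methylene blue. Its saline values were 27.2, 46.0 and 73.4 at 30 min, with 47.1, 39.5 and 62.4 at 60 min and 36.9, 64.5 and 56.3 at 180 min. The 12 CA arrays ran from 29.5 to 53.0 (median 39.9). All 9 MB arrays lay above all 12 CA arrays, and 7 of 9 above all saline arrays, SAL30 replicate 3 being the highest of these. STX16 was higher by 0.59 ± 0.14 on the log2 scale (SE, limma adjusted p = 0.00334), and with the 3'/5' ratio in the fit it missed the threshold at 0.45 ± 0.16 (0.0848). VPS45, the Sec1/Munc18 protein that binds STX16, was higher as well and is described with the endosomal genes. RAB6A, the RAB of Golgi to ER and Golgi to surface carriers, ran from 2726 to 3515 (median 3153) against 2466 to 2974 (median 2790.2) in the arms and was higher by 0.20 ± 0.06 (adjusted p = 0.0149). Of its 9 MB arrays 8 lay above all saline arrays, and centred on the median it was not called (0.249). RAB1A, at 2031 to 2738 (median 2346) against 1580.5 to 2442 (median 2004), was higher by 0.25 ± 0.08 (adjusted p = 0.0212), a call lost without SAL30 replicate 1 (0.0509). STX10, another syntaxin of the trans-Golgi network, ran from 220.2 to 383 (median 304) against 313 to 459 (median 392) and was lower, with a difference of -0.30 ± 0.10 (adjusted p = 0.0299). That call was lost without any one of SAL30 replicate 2 (0.0599), SAL30 replicate 3 (0.054), SAL60 replicate 2 (0.0617), SAL180 replicate 1 (0.0555), MB60 replicate 3 (0.0582) or MB180 replicate 2 (0.0785). STX6, which pairs with STX16, differed by -0.24 ± 0.09 and did not pass (adjusted p = 0.0518). RAB2A, a bright gene of the early Golgi, differed by 0.01 ± 0.05 with an interval of -0.10 to 0.11. STX5, STX18, RAB18 and RAB19 differed by -0.02 ± 0.07, -0.05 ± 0.10, -0.03 ± 0.08 and 0.04 ± 0.13.

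Early and recycling endosomes gave 3 genes that were higher, VPS45, RAB14 and RAB23, and 2 that were lower, VAMP3 and STX8, of 14. VPS45 read 487, 479 and 451 at 30 min, with 481, 469 and 407 at 60 min and 406, 442 and 459 at 180 min with methylene blue. With saline it read 375, 343 and 361 at 30 min, with 352, 326 and 366 at 60 min and 335, 336 and 274 at 180 min, and the CA arrays ran from 298 to 402 (median 365). The lowest MB array lay above the highest of the other 21 arrays, although by a small margin, and the difference between arms was 0.40 ± 0.07 (SE, limma adjusted p = 0.000315), 1.32-fold. VPS45 and VPS29 were the 2 of 73 genes whose 9 MB arrays all lay above the 9 saline arrays, which 1.13% of all probe sets did, and 0 of 73 had all 9 below, which 0.827% did. VAMP3, the SNARE of recycling vesicles, read 340.4, 496 and 555 at 30 min, with 410.3, 468 and 363 at 60 min and 395, 385 and 362 at 180 min with methylene blue. With saline it read 869.6, 606 and 522 at 30 min, with 554, 867 and 735 at 60 min and 508, 454 and 789.8 at 180 min, and the CA arrays ran from 452 to 738 (median 543). Of the MB arrays 6 lay below all 21 others, and MB30 replicates 2 and 3 and MB60 replicate 2 lay within their range. VAMP3 was lower, with a difference of -0.61 ± 0.12 (adjusted p = 0.000954), to 0.657 of the saline level.

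RAB14 had the largest log2 difference of the 73, and the largest standard error. It read 508, 464 and 481 at 30 min, with 625, 905 and 503 at 60 min and 477, 359 and 344 at 180 min with methylene blue. The saline values were 367, 272 and 582 at 30 min, with 341, 173 and 589.7 at 60 min and 260.4, 313 and 122 at 180 min, and the CA range was 129 to 479 (median 261). Only 2 MB arrays, both of MB60, lay above all saline arrays. The lowest values, 122 in SAL180 replicate 3, 129 in CA20 replicate 3 and 148 in CA20 replicate 2, were on 3 of the 4 arrays with the highest 3'/5' ratios (2.59, 2.70 and 2.20). The difference of 0.69 ± 0.21 (SE, limma adjusted p = 0.016) became 0.17 ± 0.18 (adjusted p = 0.597) with that ratio in the fit. RAB23, known for its place in hedgehog signalling at the cilium, ran from 306 to 517 (median 409) against 239 to 416 (median 318) and was higher by 0.34 ± 0.11 (adjusted p = 0.0272). That call was lost without any one of SAL30 replicate 1 (0.0658), SAL60 replicate 1 (0.0585), SAL180 replicate 3 (0.0653), MB30 replicate 1 (0.0607), MB60 replicate 1 (0.0569) or MB180 replicate 3 (0.0669). STX8, a syntaxin of endosomes, at 821 to 1182 (median 1046) against 1063 to 1452 (median 1224), was lower, with a difference of -0.27 ± 0.09 (adjusted p = 0.0234). That call was lost without any one of SAL60 replicate 2 (0.0595), SAL180 replicate 3 (0.0557), MB30 replicate 3 (0.056) or MB180 replicate 1 (0.0522). RAB11A, which marks recycling endosomes, differed by 0.13 ± 0.10 and RAB11B by 0.18 ± 0.13, and neither passed. The other members of this group, RAB4B, RAB8A, RAB10, RAB13, RAB15, RAB22A and RAB35, gave differences from -0.18 (RAB10) to 0.32 (RAB15) without a call.

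**Figure D3:**
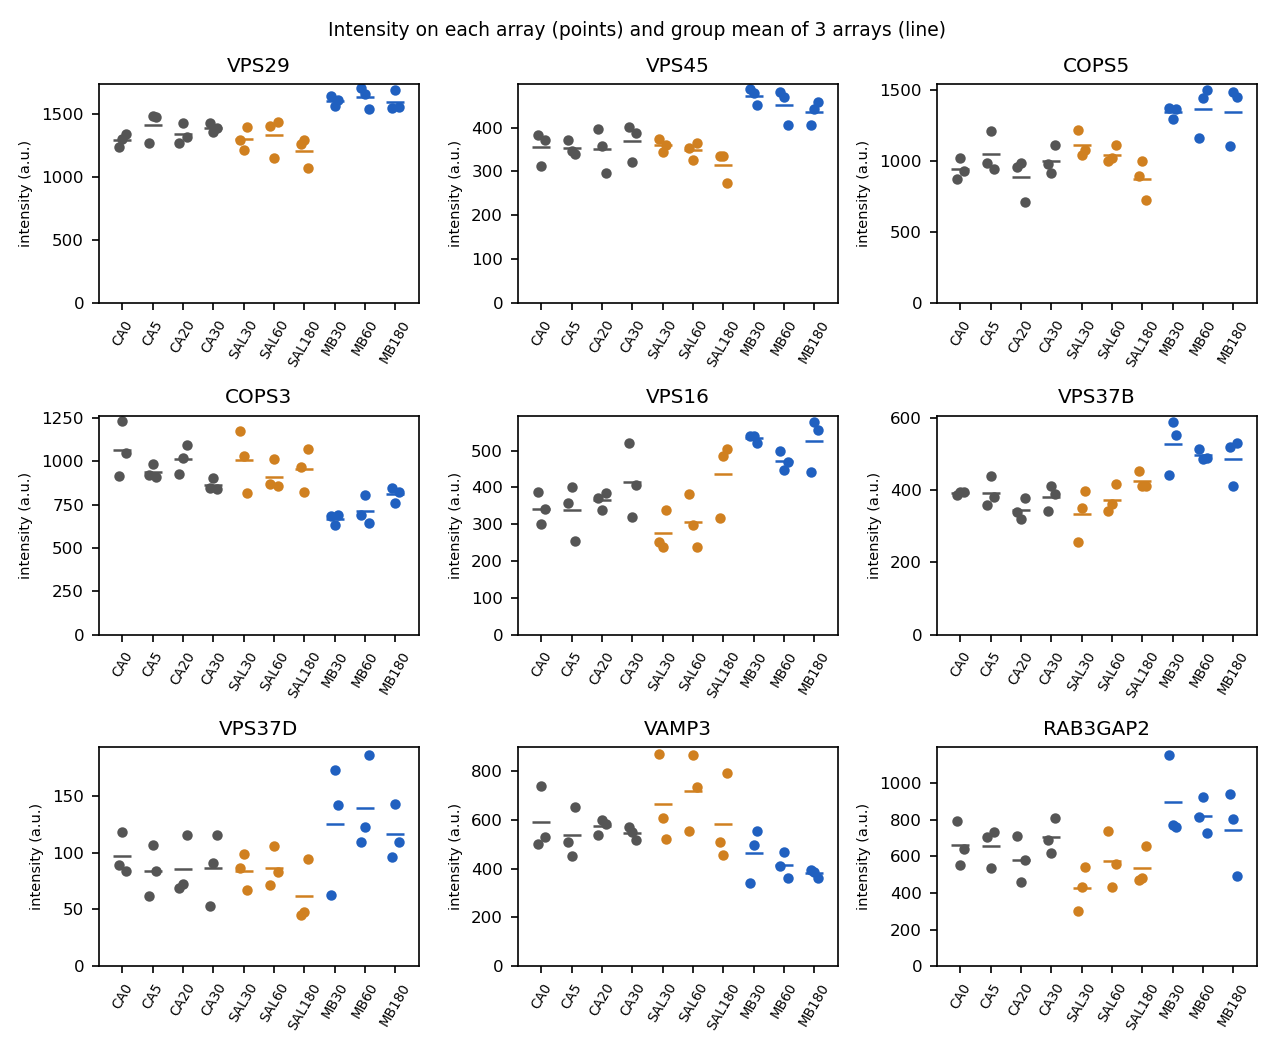
Points give the intensity (arbitrary units, axes from 0) on each of 3 arrays per group for the 9 genes called in the comparison of the arms with and without the 3'/5' ratio in the fit; lines are group means, with CA groups in grey, SAL in orange and MB in blue. For VPS29 and VPS45 every blue point lies above every other point, while the other 7 genes show overlap of 1 or more arrays.

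Late endosomes, lysosomes and autophagy supplied 15 genes, of which VPS16 and VAMP7 were higher and VPS18 and VPS41 lower. VPS16 and VPS18 belong to the core that HOPS and CORVET share, and VPS41 to HOPS alone. VPS16 read 539.7, 540.5 and 521 at 30 min, with 499, 449 and 469 at 60 min and 442, 577 and 556 at 180 min with methylene blue. The saline arrays gave 252, 239 and 339 at 30 min, with 383, 298 and 238 at 60 min and 317, 485 and 504 at 180 min, and the CA range was 256 to 522 (median 365). The MB arrays lay above the saline arrays of the same time at 30 and 60 min and overlapped them at 180 min, where 2 of 3 saline arrays were high as well. Its difference was 0.61 ± 0.11 (SE, limma adjusted p = 0.000484), 1.52-fold. VPS18 read 171, 187 and 166 at 30 min, with 227, 186 and 241 at 60 min and 190.4, 199 and 283 at 180 min with methylene blue. The saline arrays gave 239.6, 286 and 224 at 30 min, with 238, 295 and 222 at 60 min and 280.3, 271 and 312 at 180 min, and the CA range was 231 to 295 (median 273). In VPS18, 6 of 9 MB arrays lay below all other arrays, MB180 replicate 3 was among the high ones, and the difference was -0.34 ± 0.08 (adjusted p = 0.00405).

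VPS41 ran from 715 to 1079 (median 867) with methylene blue, 942 to 1712 (median 1228) with saline and 928 to 1419.5 (median 1155) without resuscitation, with 7 of 9 MB arrays below all others. It was lower, with a difference of -0.44 ± 0.11 (SE, limma adjusted p = 0.00421). The remaining subunits of these tethers, VPS11, VPS33A and VPS39, did not pass, at -0.14 ± 0.07, 0.12 ± 0.07 and -0.0038 ± 0.09. Thus 1 of 6 measured HOPS genes was called higher and 2 lower. The calls of VPS16 and VPS18 rest on the chosen probe set, since a further probe set of each was not called. That of VPS16 had a median of 194 with methylene blue and 199 with saline, and that of VPS18 49.6 and 43.5. VAMP7 ran from 231 to 395 (median 335) against 159 to 349 (median 213) in the arms and was higher by 0.43 ± 0.14 (adjusted p = 0.0224), a call lost without SAL60 replicate 2 (0.0582) or SAL180 replicate 1 (0.0574). RAB7A, the RAB of late endosomes, stayed within 1601 to 1978 (median 1798) with methylene blue and 1399.7 to 2240.0 (median 1720.0) with saline, a difference of 0.07 ± 0.07 with an interval of -0.07 to 0.21. VAMP8 and SNAP29, SNAREs of the fusion of autophagosomes with lysosomes, differed by -0.07 ± 0.15 and 0.04 ± 0.13, the lipid transfer proteins VPS13C and VPS13D by 0.19 ± 0.13 and -0.27 ± 0.18, and RAB9A, RAB24 and RAB32 by 0.02 ± 0.15, -0.15 ± 0.08 and -0.13 ± 0.11.

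In retromer, VPS29 read 1644, 1564 and 1613 at 30 min, with 1704, 1658 and 1542 at 60 min and 1549.8, 1690.1 and 1554 at 180 min with methylene blue. The saline values were 1295, 1218 and 1398 at 30 min, with 1405, 1151 and 1438 at 60 min and 1264, 1293 and 1070.2 at 180 min, and the CA arrays ran from 1237 to 1482 (median 1351). No array of the 21 others reached the lowest MB array, and the difference of 0.33 ± 0.06 (SE, limma adjusted p = 0.000258), 1.26-fold, had the smallest p of the 73 genes. VPS26A and VPS26B, alternative forms of another retromer subunit, lay on the other side of 0, at -0.20 ± 0.10 and -0.30 ± 0.12, and did not pass (adjusted p = 0.15 and 0.0791). VPS52, of the Golgi tether to which VPS53 also belongs, differed by 0.01 ± 0.06 with an interval of -0.12 to 0.14.

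Both measured forms of the VPS37 subunit of ESCRT-I, which picks up ubiquitinated cargo, were higher with methylene blue. VPS37B read 443, 589 and 551 at 30 min, with 515, 485 and 489 at 60 min and 519.8, 412 and 531 at 180 min with methylene blue. The saline arrays gave 258, 349.8 and 398 at 30 min, with 342, 363 and 416 at 60 min and 452, 411 and 413 at 180 min, and the CA range was 321 to 439.6 (median 384). For VPS37B, 7 MB arrays lay above all 21 others, and MB30 replicate 1 and MB180 replicate 2 did not, for a difference of 0.41 ± 0.08 (SE, limma adjusted p = 0.000859). VPS37D, a dimmer gene, read 62.2, 173 and 141 at 30 min, with 109.6, 122 and 185 at 60 min and 96.1, 143 and 109 at 180 min with methylene blue. The saline arrays gave 86.0, 98.9 and 67.3 at 30 min, with 71.6, 105 and 83.2 at 60 min and 45.0, 47.5 and 94.0 at 180 min, and the CA range was 53.2 to 118 (median 86.7). MB30 replicate 1 was low and 7 of 9 MB arrays lay above all saline arrays, with a difference of 0.60 ± 0.17 (adjusted p = 0.0137). The other ESCRT genes did not pass: VPS28 of ESCRT-I differed by -0.08 ± 0.09, VPS25 and VPS36 of ESCRT-II by 0.17 ± 0.09 and -0.24 ± 0.13, and VPS4A, the ATPase that takes the complexes apart, by -0.10 ± 0.09.

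Of 3 genes of fusion at the plasma membrane outside the synapse, STX4 was lower, at 188 to 262 (median 208) against 215 to 308 (median 266) with saline and 212 to 269 (median 240.1) without resuscitation. Of its 9 MB arrays 7 lay below all others, and the difference was -0.28 ± 0.08 (SE, limma adjusted p = 0.0116). SNAP23, its partner, differed by 0.09 ± 0.13 and STX11 by -0.05 ± 0.16, without passing.

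In the COP9 signalosome, COPS5, the subunit that cleaves NEDD8 from cullins, and COPS3, a structural subunit, stood on opposite sides of 0, both passing the test. COPS5 read 1375, 1294 and 1365 at 30 min, with 1162, 1442 and 1497 at 60 min and 1107, 1481 and 1451 at 180 min with methylene blue. With saline it read 1216, 1039.7 and 1076 at 30 min, with 1000.5, 1019 and 1110.1 at 60 min and 895, 1001 and 727 at 180 min, and without resuscitation 713 to 1210.4 (median 968). The MB arrays lay above the saline arrays of the same time at all 3 times, and 7 of 9 lay above all 21 others. COPS3 read 682, 634 and 687 at 30 min, with 692, 804 and 647 at 60 min and 846, 758 and 825 at 180 min with methylene blue. The saline arrays gave 1176, 1033 and 818 at 30 min, with 866, 1011 and 859 at 60 min and 969, 821 and 1069.6 at 180 min, and the CA range was 839 to 1231 (median 925). Of the 9 MB arrays 7 lay below all others, and the 2 that did not were of MB180. The differences were 0.42 ± 0.08 for COPS5 (SE, limma adjusted p = 0.000786) and -0.38 ± 0.07 for COPS3 (0.000764). COPS2, COPS4, COPS6, COPS7A and COPS8 differed by 0.12 ± 0.07, 0.05 ± 0.05, -0.10 ± 0.07, 0.17 ± 0.11 and -0.02 ± 0.09, and none passed. The 4 genes left without a role class, RAB28, RAB34, RAB40C and VPS72, ranged from -0.18 (RAB28) to 0.08 (RAB34) without a call.

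At single times, with 3 arrays against 3, fewer genes passed. At 30 min 4 of 73 were called in limma, beside 4.09% of all probe sets (2.4% higher and 1.69% lower). Higher were VPS16 (0.92 ± 0.20 SE, adjusted p = 0.0105), VPS37B (0.64 ± 0.14, 0.0122) and RAB3GAP2 (1.06 ± 0.24, 0.0147), and COPS3 (-0.57 ± 0.13, 0.0146) was lower. Without SAL30 replicate 1 only VPS16 was called, with COPS3 at 0.0896, VPS37B at 0.0825 and RAB3GAP2 at 0.0928. VPS37B and COPS3 were also lost without MB30 replicate 2 (0.061 and 0.0576), and RAB3GAP2 without MB30 replicate 1 (0.0799). VPS18 differed by -0.48 ± 0.14 and did not pass (adjusted p = 0.0565). At 60 min 0 were called, beside 1.52% of all probe sets, with 15 at an unadjusted p below 0.05 (20.5%, against 17.3% of all). The smallest adjusted p belonged to VAMP3 (-0.76 ± 0.21, 0.0675), STX16 (0.81 ± 0.24, 0.085), VPS16 (0.62 ± 0.20) and VPS41 (-0.55 ± 0.19). There, 1 gene was called without SAL30 replicate 1 or without SAL180 replicate 3.

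At 180 min COPS5 (0.61 ± 0.14 SE, limma adjusted p = 0.0262) and VPS29 (0.40 ± 0.10, 0.0365) were higher. These 2 of 73 stand beside 1.9% of all probe sets (1.28% higher). Neither was called without SAL180 replicate 1 (0.0631 and 0.0659), SAL180 replicate 3 (0.198 and 0.224), MB180 replicate 2 (0.157 and 0.18) or MB180 replicate 3 (0.103 and 0.0845). VAMP3 and VPS18 differed by -0.56 ± 0.21 and -0.36 ± 0.14 at that time without passing. A test of whether the arm difference varied between the 3 times called 0 of 73 genes, and 0% of all probe sets, with STX11 the 1 gene at an unadjusted p below 0.05, beside 2.88% of all. STX11 read 155, 57.0 and 54.8 in SAL30 and 34.9, 37.7 and 57.1 in MB30, but 64.6, 55.4 and 79.7 in SAL180 and 67.3, 107 and 178 in MB180, so that the highest values were on 1 array of SAL30 and 2 of MB180. Summed leukocyte markers, 5 of 6 listed on the array and 1 above the filter, ran from 114 to 222 on the SAL arrays and 112 to 297 on the MB arrays, and their part in the STX11 values was not tested.

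Against CA0, with which the saline groups were also compared, 11 of 73 genes were called in MB30, 7 higher and 4 lower, beside 12.2% of all probe sets (7.58% and 4.59%). In MB60, 7 were called, 5 higher and 2 lower, beside 12.5% (7.05% and 5.49%). In MB180, 3 were called, all higher, beside 9.41% (5.7% higher). STX16 was higher at all 3 times, by 0.79 ± 0.24, 1.15 ± 0.24 and 0.84 ± 0.24 on the log2 scale (SE, limma adjusted p = 0.0327, 0.00367 and 0.0285), from 34.0, 32.5 and 39.5 in CA0. COPS5 was also higher at all 3 times, by 0.51 ± 0.14, 0.52 ± 0.14 and 0.50 ± 0.14, from 875, 1019 and 929.9 in CA0, without overlap of the groups. COPS3 was lower in MB30 (-0.65 ± 0.13, adjusted p = 0.00254) and MB60 (-0.56 ± 0.13, 0.00686) and differed by -0.38 ± 0.13 in MB180 without passing (0.0626). VPS26B was lower in MB30 (-0.70 ± 0.21) and MB60 (-0.71 ± 0.21), and its saline values at 60 min, 623, 395 and 485, overlapped the 489.7, 402 and 469 of MB60.

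The tethers VPS18 (-0.60 ± 0.14 SE) and VPS11 (-0.41 ± 0.12) were lower in MB30 than in CA0, and VPS16 (0.62 ± 0.20), VPS45 (0.40 ± 0.12), VAMP7 (0.72 ± 0.24), RAB14 (1.07 ± 0.36) and VPS29 (0.31 ± 0.10) were higher. In MB60, RAB14 (2.83-fold, limma adjusted p = 0.00823), RAB1A (0.49 ± 0.13) and VPS29 (0.33 ± 0.10) were higher, and in MB180 RAB1A (0.44 ± 0.13). With the 3'/5' ratio in the fit, 0, 1 and 0 genes were called in MB30, MB60 and MB180, the 1 being STX16 in MB60. Single arrays mattered here. The 11 of MB30 became 4, 4 or 5 without CA0 replicates 1, 2 or 3 and 5, 5 or 2 without MB30 replicates 1, 2 or 3. Of these 11, COPS3 and VPS18 were called in limma with any 1 of the 30 arrays left out, while VPS29 was called in 20 of the 30 fits, VAMP7 in 17 and RAB14 in 9. The 7 of MB60 became 3 without CA0 replicate 1, 4 without CA0 replicate 2 and 3 without MB60 replicate 2. The 3 of MB180 became 1 without CA0 replicates 1, 2 or 3 or MB180 replicate 3, 0 without MB180 replicate 2, and 5 without SAL30 replicates 1 or 3, which enter through the shared spread.

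Setting the 6 resuscitated groups against the 4 without resuscitation called 7 of 73 genes in limma (9.59%), beside 17.6% of all probe sets (10.4% higher and 7.25% lower). STX16 (0.49 ± 0.11 SE, adjusted p = 0.00337), COPS5 (0.27 ± 0.07, 0.00628), RAB14 (0.60 ± 0.16, 0.0122) and VPS37B (0.19 ± 0.06, 0.0384) were higher. COPS3 (-0.21 ± 0.06, 0.0156), VPS11 (-0.16 ± 0.05, 0.0378) and VPS18 (-0.19 ± 0.07, 0.0467) were lower. With the 3 saline groups alone in place of the 6, 0 genes were called in limma (1.5% of all probe sets), and 2 had an unadjusted p below 0.05 (10.1% of all). With the 3 methylene blue groups alone 25 were called (36.3% of all), 13 higher and 12 lower (20.2% and 16.1% of all). STX16 differed by 0.20 ± 0.13 in the saline groups and 0.78 ± 0.13 in the methylene blue groups, and COPS5 by 0.06 ± 0.08 and 0.48 ± 0.08, against the same CA arrays. The count fell from 7 to 4 without replicate 1 of CA0, CA5, CA20 or CA30. STX16, COPS5, RAB14 and COPS3 were called in limma with any 1 of the 30 arrays left out, and the calls of VPS11, VPS37B and VPS18 were not stable. VPS11 was called in 17 of 30 such fits and lost without CA0 replicates 1 and 2, CA5 replicates 1 and 2, CA20 replicates 1 and 3, CA30 replicates 1 and 2, SAL30 replicate 1, SAL60 replicate 1, MB30 replicate 3, MB60 replicate 3 or MB180 replicate 2 (adjusted p = 0.0502 to 0.0822). VPS37B was called in 13 of 30 and lost without CA0 replicates 1, 2 and 3, CA5 replicates 1 and 3, CA20 replicates 1 and 2, CA30 replicate 1, SAL30 replicates 2 and 3, SAL60 replicate 3, SAL180 replicate 1, MB30 replicates 2 and 3, MB60 replicate 1 or MB180 replicates 1 and 3 (0.0501 to 0.0799). VPS18 was called in 9 of 30, those without CA0 replicate 3, CA5 replicate 3, SAL30 replicate 2, SAL60 replicate 2, SAL180 replicate 3, MB30 replicate 2, MB60 replicates 1 and 3 or MB180 replicate 3, and lost in the other fits (0.0568 to 0.0865). With the 3'/5' ratio in the fit STX16 was the 1 gene still called.

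A test of any difference among the 10 groups called 11 of 73 genes, beside 15.3% of all probe sets. COPS5 (limma adjusted p = 0.00501), COPS3 (0.00609), VPS16 (0.00842), STX16 (0.0112) and RAB14 (0.0114) had the smallest values, followed by VPS37B, VPS45, VPS29, VPS18, VPS26B and STX11. VPS26B and STX11 were the 2 of these 11 that were not called between the arms over the 3 times. VPS26B read 851, 735 and 667 in CA0, 456, 530.4 and 386 in MB30 and 609, 772 and 691 in MB180. Every array of MB30, MB60 and SAL60 lay below the lowest CA0 array, while in MB180 2 of 3 lay above it. STX11 was lowest in CA30, at 27.4, 33.4 and 41.9, where all 3 arrays lay below those of CA0, at 48.2, 69.0 and 57.2.

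The MB arrays differ from the others in the 3'/5' ratio, and with that ratio as a covariate 9 of the 22 genes called between the arms remained called, while all 22 kept their sign. The median size of their 22 differences was 0.403 without and 0.318 with the covariate. VPS16 gave 0.61 without and 0.61 with the covariate, VPS37B 0.41 and 0.41, and VPS37D 0.60 and 0.87. The other 6 came closer to 0: VPS45 went from 0.40 to 0.27, VPS29 from 0.33 to 0.26, COPS5 from 0.42 to 0.31, COPS3 from -0.38 to -0.28, VAMP3 from -0.61 to -0.46 and RAB3GAP2 from 0.67 to 0.55. RAB14 moved most of the 22, as given above. Calls also went with the level: of the 5600 dimmest probe sets 18.5% were called higher and 4.57% lower, against 9.54% and 17.9% of the 5600 brightest. Of the 11 trafficking genes among the dimmest 3 were called, all higher (STX16, RAB27B and VPS37D), and of the 42 among the brightest 7 were higher and 4 lower. The ratio and the arm moved together in these samples, and the part of RNA quality in the calls was not tested beyond these values.

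**Figure D4:**
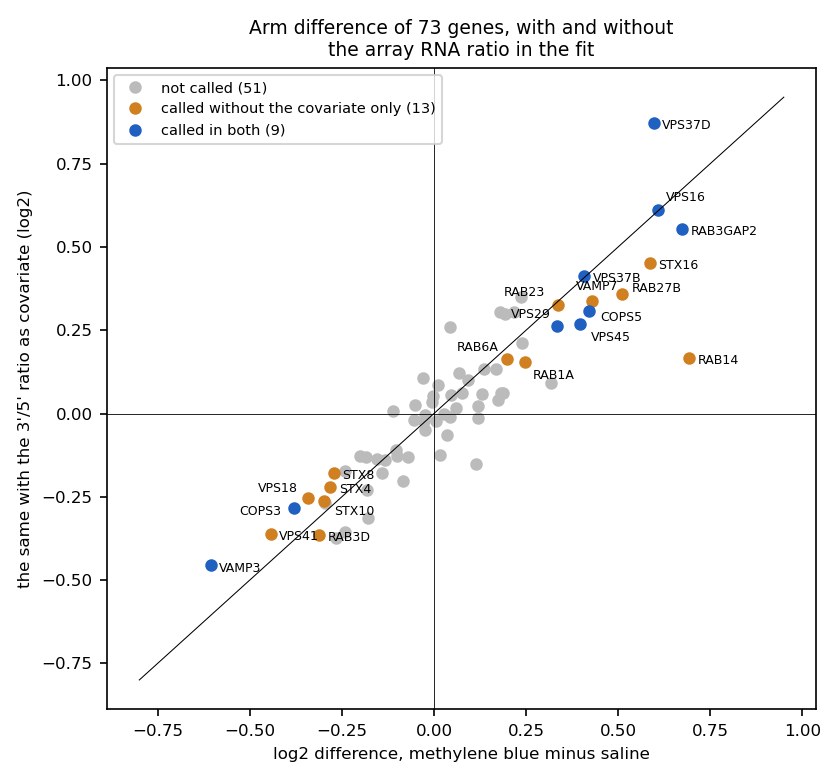
Each point is 1 of the 73 genes, with its log2 difference between the arms on the horizontal axis and the same difference with the 3'/5' ratio as a covariate on the vertical axis; the diagonal marks equal values. The 9 blue genes were called in both fits, the 13 orange genes only without the covariate, and RAB14 lies farthest below the diagonal among the called genes, at 0.69 and 0.17.

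Of the 73 genes 30 had further probe sets that were tested, 36 in all, and these did not always move with the chosen one. Between the arms 12 of the 36 were called, 11 higher and 1 lower, and 19 of 36 had the sign of the chosen probe set. Beside them stand 25.2% of all probe sets, 13.8% higher and 11.4% lower. By the rule the further probe sets were dimmer than the chosen one of their gene, which does not place them among the dimmest of the array. Of the 5600 dimmest probe sets on the array, with levels up to 113.3, 18.5% were called higher and 4.57% lower. Of the 5600 brightest, 9.54% were called higher and 17.9% lower. Not all of the further probe sets were among the dimmest, and the part of the level in their calls was not tested. Among 9 called genes with more than 1 tested probe set, 4 had a further one called the same way: COPS5 (0.44 ± 0.13 SE beside 0.42), RAB3GAP2 (0.33 ± 0.11 beside 0.67), RAB1A (0.86 ± 0.12 beside 0.25) and RAB23 (0.70 ± 0.12 and 1.04 ± 0.14 beside 0.34). A second further probe set was not called for RAB3GAP2 (-0.04 ± 0.20, adjusted p = 0.899) or RAB1A (0.10 ± 0.13, 0.599). That of RAB1A is the brighter of its further 2, at 680.2 to 1309 (median 1078) with methylene blue and 699 to 1083 (median 973) with saline. All 3 probe sets of RAB23 were called, and the further 2 ran from 159 to 235 (median 194) and 67.3 to 103 (median 80.7) with methylene blue against 66.0 to 152 (median 113) and 12.7 to 64.8 (median 29.8) with saline. For VPS16, VPS18, STX4 and STX10 the further probe set gave -0.04 ± 0.09, -0.02 ± 0.22, 0.04 ± 0.17 and -0.01 ± 0.14, so that the call for these 4 rests on a single probe set. For STX8 it gave -0.36 ± 0.13, which just missed the threshold (limma adjusted p = 0.0533). A further 13 of the 22 called genes had only 1 tested probe set, so that their calls rest on 1 as well. RAB3D, called lower, is among them. Its further probe sets, below the filter, had higher means with methylene blue (33.0 and 30.6) than with saline (26.7 and 13.2).

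For 7 genes only a further probe set was called. It was higher for RAB10 (0.81 ± 0.16 SE), STX5 (0.83 ± 0.14), RAB2A (0.72 ± 0.16), RAB11B (0.72 ± 0.18), RAB28 (0.48 ± 0.14) and RAB11A (0.35 ± 0.07) and lower for RAB9A (-0.51 ± 0.14). For RAB2A the further probe set ran from 52.2 to 137 (median 103) with methylene blue and 27.1 to 79.7 (median 56.0) with saline, while its chosen, bright one differed by 0.01 ± 0.05. The 2 probe sets of RAB11A have nearly the same mean, so that the rule chose between them by a hair. Counting a gene where any of its probe sets was called raised the 22 to 29, and such a count can only rise. Which transcript each probe set reads was not analysed here.

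**Figure D5:**
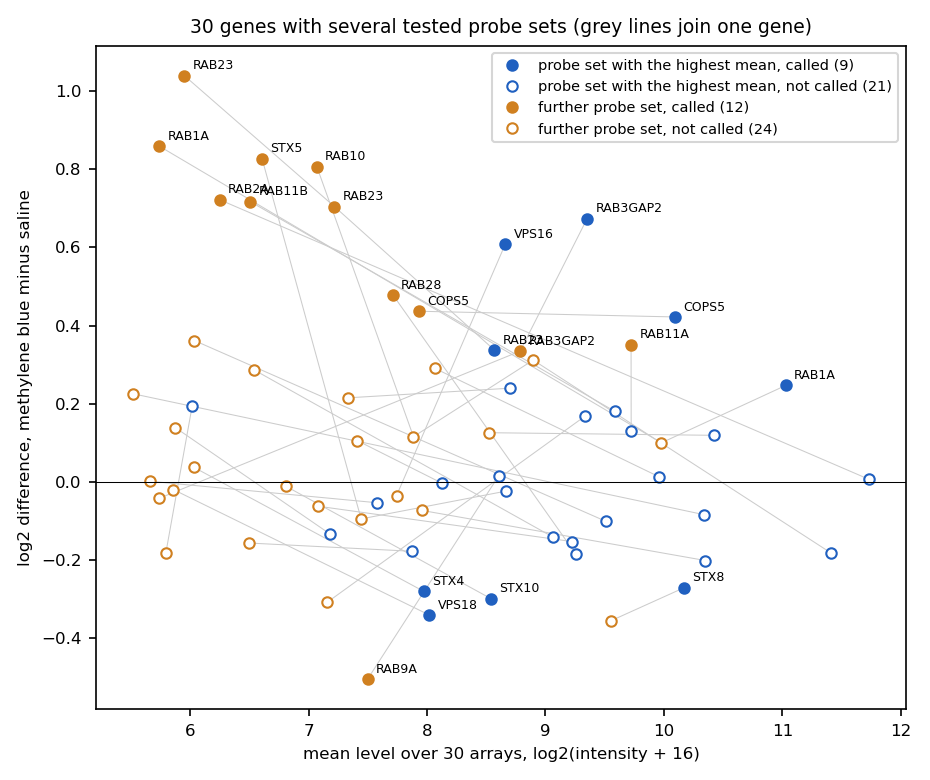
For the 30 genes with several tested probe sets, the log2 difference between the arms is plotted against the mean level of the probe set over 30 arrays on the log2(intensity + 16) scale; grey lines join probe sets of a gene and filled points are called. Of the 12 called further probe sets (orange), 11 lie above 0; they lie left of the chosen probe set of their gene (blue), which the rule picked for its higher mean.

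Other genes of these pathways were counted from 5 lists, and in the 6 comparisons of the untreated and saline groups with CA0 0 of their members were called. Between the arms 4 of 13 tested genes of SNARE recycling and transmitter release were higher. These are the vesicle proteins SYT1 (0.31 ± 0.09 SE, limma adjusted p = 0.0147), SYN1 (0.46 ± 0.15) and SYN2 (0.51 ± 0.17) and the ER SNARE BNIP1 (0.23 ± 0.07). The 1 lower gene was the Golgi SNARE GOSR2 (-0.57 ± 0.10). Of 7 tested RAB regulators and effectors 0 were higher and 2 lower, GDI2, which extracts RAB proteins from membranes (-0.30 ± 0.05), and RABAC1, which helps to place them there (-0.24 ± 0.07). Among 30 genes of vesicle coats and ARF GTPases 3 were higher (AP3D1, ARF4 and SEC23A) and 4 lower (SEC24C, AP2S1, COPZ1 and AP1B1), with sizes of 0.17 to 0.30.

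Of 15 sorting nexins and ESCRT partners 2 were higher, PDCD6IP (0.40 ± 0.10 SE) and CHMP2B (0.40 ± 0.14), and 4 lower, SNF8 of ESCRT-II (-0.44 ± 0.07), SNX6 (-0.38 ± 0.10), CHMP4A (-0.34 ± 0.10) and SNX1 (-0.27 ± 0.09). Of 10 cullin and NEDD8 genes, which work with the COP9 signalosome, DDB1, the adaptor of the CUL4 ubiquitin ligase, was higher (1.09 ± 0.13, limma adjusted p = 2.37e-06) and CUL4A lower (-0.49 ± 0.09). DDB1 was also called as higher at each of the 3 single times. Shares called in the 5 lists, 5 of 13, 2 of 7, 7 of 30, 6 of 15 and 2 of 10, stand beside 25.2% of all probe sets.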

How the data were processed

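The authors deposited linear array intensities made with GCOS, per the submitters' processing notes. The sources used here do not give its version or signal algorithm. Of 24123 probe sets, 124 controls were left out. Gene symbols came from the platform's table; 73 of 74 genes matched the reference by gene ID, with the same symbol, and 4 probe sets with 2 symbols were left out. The members and gene lists were chosen with earlier results of these data known. Probe sets under the 30th percentile of mean log2(intensity + 16), an intensity of 29.5, were left out, which left 16799. One limma fit (limma 3.58.1, R 4.3.3) with a mean for each of 10 groups and an intensity trend gave 14 contrasts and 2 F tests, two-sided, adjusted by Benjamini-Hochberg within each. Named were all called genes, the 2 smallest p in each direction of each contrast, the 2 smallest p of each role class in the F test over 10 groups, and a fixed set of 16 textbook genes. Errors of differences are standard errors. The fit was tested on simulated data. Arrays have no counts, so the 3 arrays per group limit precision; no 2 arrays held identical values. Alternatives were pseudocounts of 1 and 64, filtering at the 50th percentile or not at all, quantile normalization, median centring, no trend, array weights, the compared groups alone, the replicate number as a block, the 3'/5' ratio as covariate, any probe set, and each array left out. Chosen after seeing the data were leaving out 2 arrays and the saline or methylene blue groups alone.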

Additional observations from a re-analysis of the deposited data

How the results depend on the processing

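Of 3718 values of single genes under an alternative, 3394 kept their side of the threshold, 305 fell below it, 19 rose above it and 0 changed sign. The values cover 89 pairs of gene and comparison, called or not. A pair that was not called could not fall below the threshold, so the 305 are losses among the called pairs alone. Pairs were named for a small p in their direction, which made a change of sign unlikely. For methylene blue against saline over the 3 times, the 22 called genes became 9 with the 3'/5' ratio as covariate and 19 to 23 with an array left out. For any difference among the 10 groups the 11 became 1 with the covariate, 18 with any probe set of the gene and 8 to 14 with an array left out. For resuscitated against not resuscitated the 7 became 12 with median centring, 13 with array weights, 1 with the covariate, 17 with any probe set, 0 with saline groups only, 25 with methylene blue groups only and 4 to 7 with an array left out. At 30 min between the arms the 4 became 8 with array weights, 0 with the compared groups alone, 1 without the 2 arrays that stood apart, 7 with any probe set and 1 to 5 with an array left out. At 60 min the 0 became 1 with median centring, 2 without the 2 arrays and 0 to 1 with an array left out. At 180 min the 2 became 0 with median centring, the covariate, the compared groups alone or without the 2 arrays, 1 without a trend, 5 with array weights, 6 with any probe set and 0 to 3 with an array left out. MB30 against CA0 gave 0 with the covariate, 7 with the compared groups alone, 19 with any probe set and 2 to 12 with an array left out, in place of 11. MB60 against CA0 gave 1, 3, 17 and 3 to 8 in the same settings, in place of 7. MB180 against CA0 gave 0, 0, 9 and 0 to 5 in place of 3, and also 9 with array weights and 8 without the 2 arrays. CA5, CA20, CA30, SAL30, SAL60 and SAL180 against CA0 and the test of the arm difference between times gave 0 in every run with an array left out. The causes of these changes were not tested.

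The replicate numbers do not pair the samples: deviations from the group means correlated at a median of -0.0034 between arrays of the same number, and 28 of 135 such pairs exceeded 0.1. With the replicate number as a block, 22 genes were called over the 3 times and 1 at 180 min, and VPS18 was not called in resuscitated against not resuscitated (adjusted p = 0.058), where it was also lost with no filter (0.0534).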
